A study of Mus musculus with 10 samples.

Results

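The mitochondrial protein import machinery was followed in mouse oocytes through 36 genes of the 18493 in the deposited count table. They were taken by name: every gene symbol made of Timm or Tomm and a digit, apart from Tomm7, and 13 further genes for the membrane assembly, relay, motor, chaperone and processing steps. By place of action, 11 of them belong to the outer membrane, 8 to the intermembrane space, 11 to the inner membrane and 6 to the matrix. The study sequenced 10 oocyte libraries from the ovary by SMART-seq2, in which RNA is copied from its poly(A) tail into full-length cDNA and amplified. The groups were 4 spermidine libraries, whose treatment is labelled as a rescue, 3 aged libraries, labelled as treatment, and 3 young libraries, labelled as control. According to the series' design text the spermidine group was a rescue of aged oocytes, and the aim was to see how the polyamine spermidine changes their transcripts. The labels give no strain, age, dose, time or number of oocytes per library, and do not say whether libraries of a group came from separate mice, so the p-values below measure only the spread between these libraries, which may be technical.

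Nearly all mitochondrial proteins are encoded in the nucleus, made in the cytosol and carried into the organelle. The TOM complex of the outer membrane is the common gate; the SAM complex builds barrel proteins into that membrane; small Tim chaperones and a disulfide relay guide proteins across the intermembrane space. The TIM23 complex takes proteins with a presequence into the matrix, pulled by a motor around mitochondrial Hsp70, the TIM22 complex inserts carrier proteins into the inner membrane, and peptidases and chaperonins finish the job in the matrix. The egg supplies the mitochondria of the embryo, and oocytes hold very large numbers of them.

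Shown first are promoter stretches of 4 of the 5 fallen genes described below that have a window. They are printed because they hold a short run of letters upstream of the start. The same run stood in a window of 16 of 33 import genes (48.5%), many of which did not fall. It stood in a window of 19.7% of tested genes. Timm17a, the fifth fallen gene with a window, lacked it and is not printed. RefSeq windows (GRCm38.p6, 250 bases before to 50 after each gene start) matched 33 of the 36 genes; Timm21, Hspa9 and Tomm40l did not match. The 250 upstream bases are printed 5′ to 3′ on the gene's strand, and capitals mark CCGGAAG, the core bound by ETS factors such as GABPA, or its reverse complement CTTCCGG, which can overlap each other. The stretches are chr2:84826771-84827020 on the plus strand for Timm10, chr14:32201892-32202141 on the minus strand for Timm23, chr15:79670618-79670867 on the plus strand for Tomm22 and chr5:21736910-21737159 on the plus strand for Pmpcb. The last sequence, chr1:55087933-55088147 on the plus strand, is the 215 bases between the divergent starts of the chaperonin partners Hspd1 and Hspe1, which share it. Neither of these partners is among the fallen genes.
Timm10: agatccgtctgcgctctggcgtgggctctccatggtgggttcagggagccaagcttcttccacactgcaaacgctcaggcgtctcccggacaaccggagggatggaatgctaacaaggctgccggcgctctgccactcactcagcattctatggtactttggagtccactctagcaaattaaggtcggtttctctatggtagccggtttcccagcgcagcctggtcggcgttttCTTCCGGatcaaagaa
Timm23: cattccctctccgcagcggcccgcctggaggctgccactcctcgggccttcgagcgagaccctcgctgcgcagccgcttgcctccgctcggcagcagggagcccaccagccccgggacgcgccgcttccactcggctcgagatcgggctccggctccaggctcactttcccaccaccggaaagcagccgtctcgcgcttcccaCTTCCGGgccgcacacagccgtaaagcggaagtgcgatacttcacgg
Tomm22: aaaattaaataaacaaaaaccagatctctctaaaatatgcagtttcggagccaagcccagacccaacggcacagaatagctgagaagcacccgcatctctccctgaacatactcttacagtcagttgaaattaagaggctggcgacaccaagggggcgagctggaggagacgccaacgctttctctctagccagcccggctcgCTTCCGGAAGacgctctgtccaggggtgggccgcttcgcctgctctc
Pmpcb: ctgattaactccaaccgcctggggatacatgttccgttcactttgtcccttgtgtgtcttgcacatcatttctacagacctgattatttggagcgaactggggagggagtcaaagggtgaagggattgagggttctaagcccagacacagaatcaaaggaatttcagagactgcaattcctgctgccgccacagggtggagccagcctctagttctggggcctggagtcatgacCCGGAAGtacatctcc
Hspd1-Hspe1: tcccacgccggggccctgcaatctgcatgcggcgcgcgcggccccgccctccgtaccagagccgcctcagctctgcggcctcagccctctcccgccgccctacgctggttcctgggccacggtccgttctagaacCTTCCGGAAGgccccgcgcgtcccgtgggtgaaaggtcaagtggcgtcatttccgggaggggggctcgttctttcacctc

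Searched on both strands, the ETS letters stood in a window of 16 of 33 import genes (48.5%). The same held for 19.7% of the 9945 tested genes that have a window. Counted by window and not by gene, which is a different unit, they stood in 8.86% of all 32851 windows. Besides the genes printed above, the windows of Grpel1, Mtx1, Mtx2, Pmpca, Timm10b, Timm29, Timm8a2, Timm8b, Tomm34 and Tomm70a held them. In Timm10 and in Pmpcb a match lay at bases -16 to -10 from the start. Both Timm23 and Tomm22 had one at bases -47 to -41. The window of Timm17a, the fifth fallen gene with a window, held none. The NRF1 letters GCATGCGC were in the windows of 2 genes, Grpel1 and Timm13, against 5.96% of tested genes, and the ERR letters TCAAGGTCA in that of Timm8b alone, against 0.312%. These matches describe the letters in the windows and say nothing of binding.

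Library totals ran from 24222185 to 28730790 estimated counts, and levels are given as CPM, counts relative to the library total after TMM scaling. All 12 oocyte markers were detected in every library, with a summed level of 24956 to 40802 CPM in spermidine, 31897 to 39181 CPM in aged and 32600 to 35921 CPM in young libraries. The 10 granulosa and cumulus markers summed to at most 18.7 CPM and the 8 theca and stroma markers to at most 3.77 CPM in any library. Haemoglobin genes summed to 9.64 CPM in the first aged library and to 19.9 and 13.6 CPM in young replicates 1 and 3, with no more than 0.145 CPM elsewhere. Libraries also differed in how their deviations followed transcript length and GC content across genes. The Spearman correlation with length was 0.479 in aged replicate 1, the library farthest apart, 0.194 in spermidine replicate 1 and -0.267 to -0.130 in the young libraries. The same correlation with GC content was lowest in young replicate 3 (-0.332) and highest in aged replicate 3 (0.411). Genes are not independent replicates, and values after a correction for length and GC content are given beside the main results.

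Apart from the sums and ratios of reads given below, levels of different import genes were compared per kilobase of the principal transcript of the annotation. On that scale the intermembrane space chaperone gene Timm9 was highest, with a mean of 328 CPM per kilobase over the 10 libraries. Pam16, a regulator of the import motor, had 296 CPM per kilobase and led the inner membrane genes. The chaperonin gene Hspe1 led the matrix genes with 155 CPM per kilobase, and Tomm22 led the outer membrane genes with 46.6. For Timm17a the annotated length decides its place, with 80.8 CPM per kilobase of its principal transcript of 7280 bases and 925 per kilobase of its median transcript of 636 bases. The place of Pam16 also depends on the length used for Timm23. Timm23 had 241 CPM per kilobase of its principal transcript and 364 per kilobase of its median transcript, beside 296 for Pam16 on either length. At the other end, Tomm40l, a relative of the pore gene Tomm40, had 2 to 17 counts per library and was the 1 gene too low to test. Tomm5, a small TOM subunit, had 3 to 27 counts.

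Aged oocytes were first set against young ones. Of the 35 import genes tested, 6 fell in aged oocytes and 0 rose, against 8.06% of all 12315 tested genes that fell, 9.71% that rose and 17.8% in either direction (edgeR quasi-likelihood test, adjusted p under 0.05). The fallen genes were Timm10, Timm21, Timm23, Tomm22, Pmpcb and Timm17a, which between them act in the outer membrane, intermembrane space, inner membrane and matrix. The median log2 fold change of the 35 genes was -0.24, beside 0.10 over all tested genes, and 22 of the 35 had a value below 0. Of the import genes 13 had an unadjusted edgeR p under 0.05, beside 34.7% of all tested genes. DESeq2, run over 18440 genes with those of low counts kept, called 11 import genes, all lower. Over its 18440 genes it called 1419 lower and 1374 higher, 15.1% in either direction. The 5 added by DESeq2 were Hspe1, Mtx1, Mtx2, Pam16 and Tomm5. In 14 import genes every aged library lay below every young one, and in 2 above, beside 18.8% and 21.1% of all tested genes. After correction for length and GC content the median was -0.07, beside 0.01 over all genes, with 4 genes called lower and 1 higher. Over all 12315 tested genes 935 were then called lower and 847 higher. Without aged replicate 1, 5 import genes passed, all lower, and without it and spermidine replicate 1 together 6 passed as lower and 1, Tomm40, as higher (0.68). Over all tested genes these runs called 1021 of 12516 and 1288 of 12364 lower, and 1028 and 1282 higher. The count was 3, namely Timm10, Timm21 and Timm23, without aged replicate 3, without young replicate 1 or without young replicate 3. Over all tested genes 1426 of 12556, 827 of 12556 and 1031 of 12588 were called in these runs, in that order. The main fit called 2189 of 12315. The part of length and GC content in the remaining difference was not tested. These are levels relative to each library's total, so that less of a transcript per oocyte and a different mix of RNA or cells cannot be told apart.

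**Figure D1:**
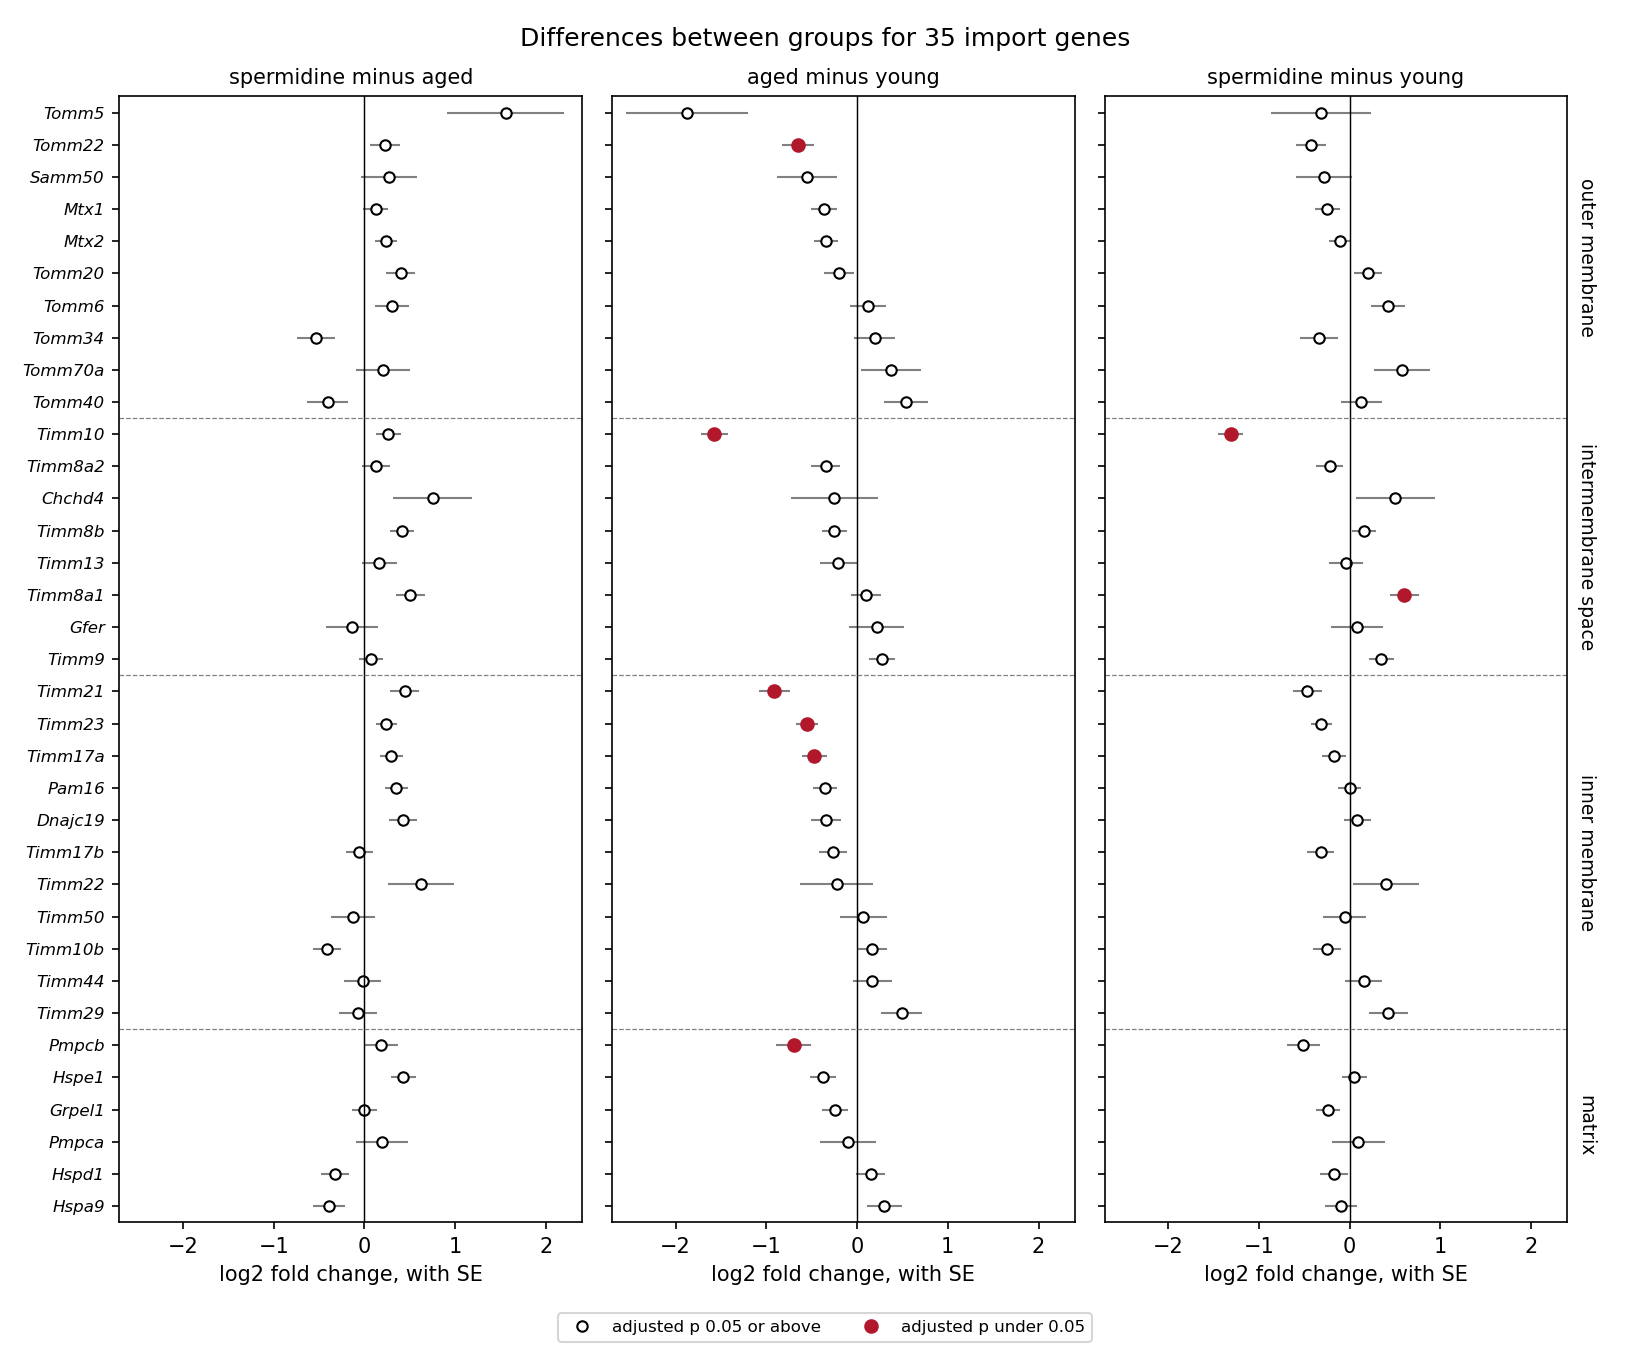
Log2 fold changes (x axis, points, with SE as bars) of the 35 tested import genes (rows, grouped by place of action) in the comparisons spermidine minus aged, aged minus young and spermidine minus young. Filled red points mark an edgeR adjusted p under 0.05: 0 genes in the left panel, 6 in the middle and 2 in the right, with Timm10 farthest below 0 among them.

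In the outer membrane, 1 of 10 tested genes fell in aged oocytes, beside 8.06% of all tested genes. Tomm22, the central receptor of the TOM complex, had 52.9, 67.6 and 56.8 CPM in aged libraries, against 102, 72.0 and 103 CPM in young libraries. Every aged library was below every young one, but aged replicate 2 and young replicate 2 lay close together. Tomm22 fell by 0.65 on the log2 scale (SE 0.18, edgeR adjusted p = 0.0268), a 1.56-fold lower level. The call was lost without aged replicate 3 (edgeR adjusted p = 0.0777), without young replicate 1 (edgeR adjusted p = 0.0970), without young replicate 3 (edgeR adjusted p = 0.0874) and after length and GC correction (-0.43, edgeR adjusted p = 0.0995). The other receptors had log2 values of either sign, -0.20 (SE 0.17) for Tomm20, which binds presequences, and 0.38 (SE 0.33) for Tomm70a, which binds carriers. The pore gene Tomm40 had 0.54 (SE 0.24). In the SAM complex the values were -0.55 (SE 0.33) for its core gene Samm50, -0.37 (SE 0.14) for Mtx1 and -0.34 (SE 0.13) for Mtx2. After length and GC correction Mtx1 passed as lower (-0.64, edgeR adjusted p = 0.0203). Tomm5 had the lowest value of all, -1.87 (SE 0.67), from 3 to 7 counts in aged and 11 to 19 in young libraries, and did not pass (edgeR adjusted p = 0.0720). Cytosolic Tomm34, a cochaperone that hands precursors over, had 0.19 (SE 0.23), and the small subunit gene Tomm6 had 0.12 (SE 0.20).

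In the intermembrane space, Timm10 showed the largest change of the import genes that passed. Timm10 encodes a subunit of the hexameric chaperone, built with Timm9, that escorts carrier proteins to the inner membrane. It had 24.0, 22.0 and 26.0 CPM in aged libraries, against 78.3, 62.5 and 73.4 CPM in young libraries. The ranges were far apart, and the highest aged library was well below the lowest young one. Timm10 fell by 1.57 on the log2 scale (SE 0.15, edgeR adjusted p = 9.23e-05), a 2.97-fold lower level. After length and GC correction the value was -1.19 (edgeR adjusted p = 0.000438). It passed without each of the 10 libraries in turn, with values from -1.66 to -1.51.

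Its partner Timm9 was not lower in aged libraries. Timm9 had 321, 356 and 329 CPM in aged libraries, against 303, 229.6 and 298 CPM in young libraries. All aged libraries were above all young ones, with a log2 value of 0.28 (SE 0.14, edgeR adjusted p = 0.190). With total count scaling Timm9 passed as higher at 0.42 (edgeR adjusted p = 0.0330), and after length and GC correction at 0.65 (edgeR adjusted p = 0.0147). The ratio of Timm9 to Timm10 counts within a library, chosen after the values were seen and given without a test, averaged 12.3 ± 1.01 in spermidine (SD, n = 4), 14.1 ± 1.87 in aged and 3.87 ± 0.195 in young libraries (SD, n = 3 each). It is a ratio of reads, not of molecules, and did not overlap between the young libraries and either other group. The Timm9 gene overlaps Tomm20l in the annotation, whereas Timm10 overlaps no gene.

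The other small Tim genes, whose products form the related Timm8 and Timm13 chaperone, had values nearer 0, none of which passed in edgeR. The log2 values were 0.10 (SE 0.17) for Timm8a1, -0.35 (SE 0.16) for its close copy Timm8a2, -0.25 (SE 0.14) for Timm8b and -0.21 (SE 0.20) for Timm13. For Timm8a2 and Timm8b every aged library lay below every young one. After length and GC correction the value was 0.26 for Timm8b and 0.30 for Timm8a1. For the relay that oxidizes small Tims and traps them, the values were -0.25 (SE 0.48) for the oxidoreductase Chchd4 and 0.22 (SE 0.30) for Gfer, which reoxidizes it.

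**Figure D2:**
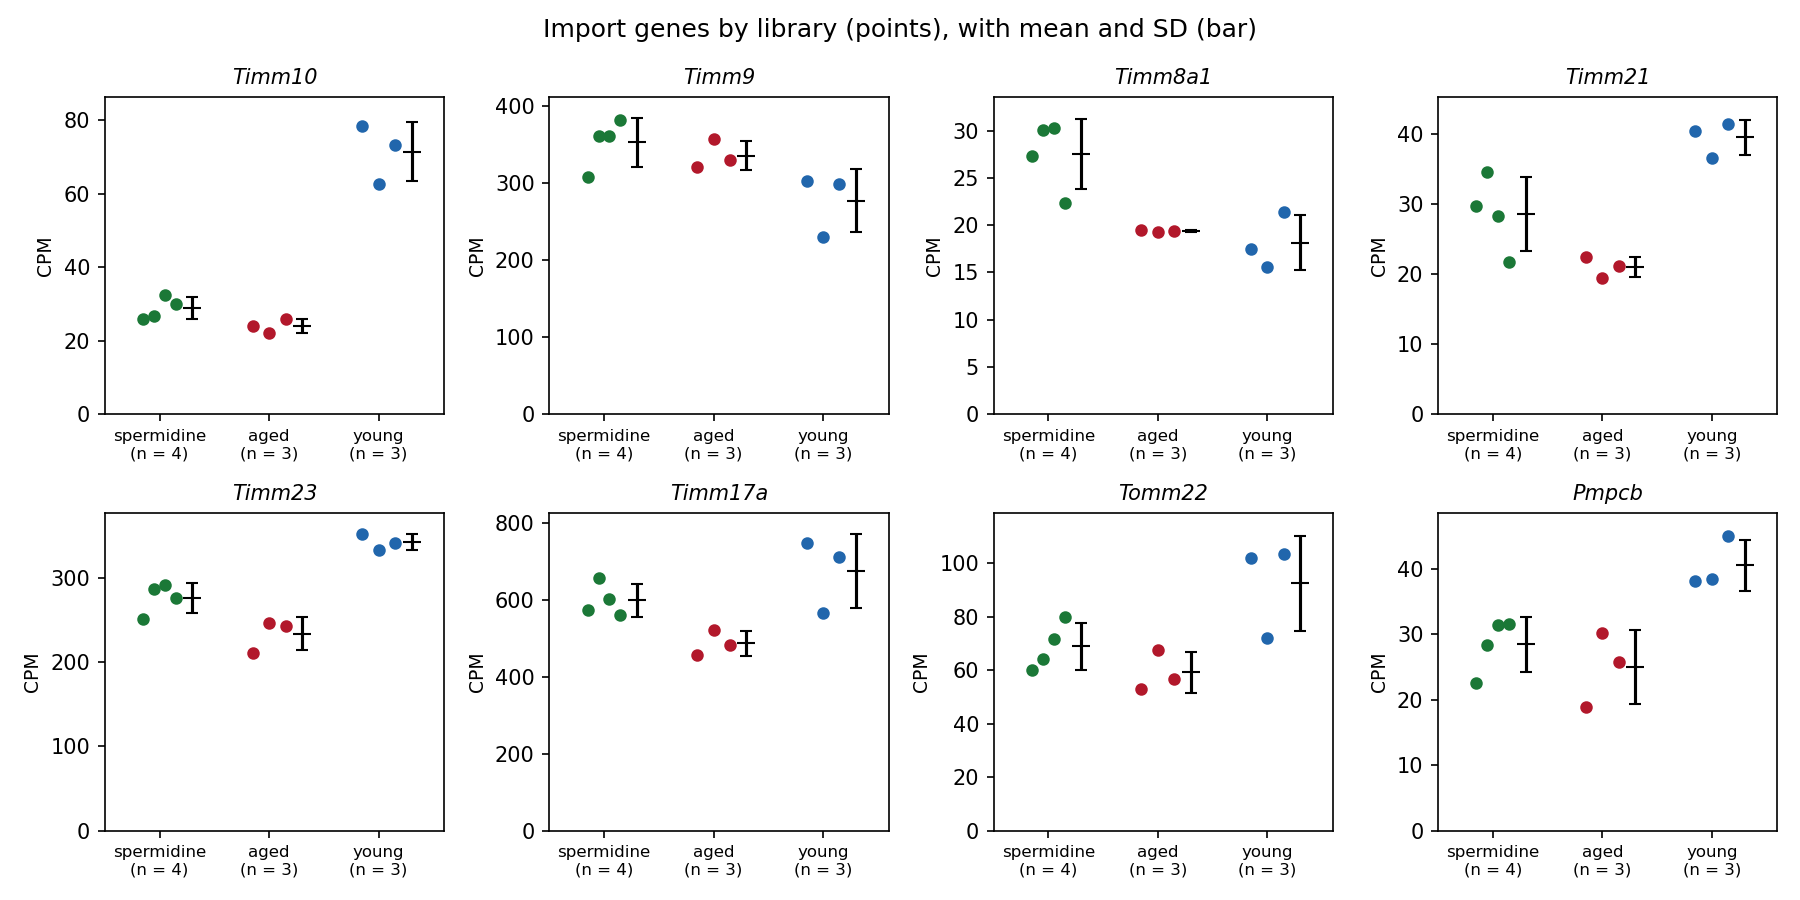
CPM (y axis, from 0) of 8 import genes in each spermidine, aged and young library (points, x axis), with the group mean and SD as a bar. The 3 young libraries stand apart for Timm10, at 62.5 to 78.3 CPM, and all 4 spermidine libraries exceed all aged and young ones for Timm8a1.

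In the inner membrane, 3 of 11 genes fell in aged oocytes, beside 8.06% of all tested genes. All of the fallen ones belong to the TIM23 complex, but most of the 11 genes act in that complex or its motor. Timm23, the channel subunit, had 211, 247 and 243 CPM in aged libraries, against 352, 332 and 342 CPM in young libraries. The groups were well separated, with little spread among the young libraries. Timm23 fell by 0.55 on the log2 scale (SE 0.12, edgeR adjusted p = 0.0115), and it passed without each library in turn. With length and GC content corrected, it no longer passed (-0.29, edgeR adjusted p = 0.114).

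Timm21, which links the TIM23 complex to the TOM complex, had 22.4, 19.5 and 21.1 CPM in aged libraries, against 40.5, 36.6 and 41.5 CPM in young libraries. No aged library came near the young range. Timm21 fell by 0.91 (SE 0.17, edgeR adjusted p = 0.00543), a 1.88-fold lower level, and passed without each library in turn and after length and GC correction (-0.78, edgeR adjusted p = 0.00396). The Timm21 gene overlaps Fbxo15 in the annotation.

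Timm17a, the other core subunit of the TIM23 channel, had 458, 521 and 482 CPM in aged libraries, against 748, 566 and 713 CPM in young libraries. The aged libraries were all lower, though young replicate 2 was close to them. Timm17a fell by 0.47 (SE 0.14, edgeR adjusted p = 0.0364). The call was lost without aged replicate 1, 2 or 3 (edgeR adjusted p = 0.0746, 0.0630 and 0.0949), without young replicate 1 (edgeR adjusted p = 0.127) or 3 (edgeR adjusted p = 0.0986), with total count scaling (-0.33, edgeR adjusted p = 0.0961) and with no filter on low counts (-0.45, edgeR adjusted p = 0.0572). After length and GC correction Timm17a passed (-0.62, edgeR adjusted p = 0.0493). Its paralog Timm17b had -0.26 (SE 0.16).

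The other TIM23 and motor genes did not pass in edgeR. Pam16, which restrains the motor's J-protein, had 149, 143 and 152 CPM in aged libraries, against 212, 158 and 196 CPM in young libraries. Its ranges did not overlap, with a log2 value of -0.35 (SE 0.13, edgeR adjusted p = 0.0870). Pam16 passed as lower with DESeq2 (-0.39, adjusted p = 0.0381) and in edgeR without young replicate 2 (-0.46, adjusted p = 0.0357). The J-protein gene Dnajc19 had -0.34 (SE 0.16). Corrected for length and GC content, the values were -0.03 for Pam16 and 0.12 for Dnajc19. Timm50, the presequence receptor of the complex, had 0.07 (SE 0.26), and Timm44, which tethers Hsp70 to the channel, had 0.17 (SE 0.22). In the carrier branch, the channel gene Timm22 had -0.22 (SE 0.40), Timm10b 0.16 (SE 0.17) and Timm29 0.49 (SE 0.23). For Timm44, Timm50 and the relay gene Gfer the 4 highest values were those of spermidine replicate 4, aged replicates 2 and 3 and young replicate 2. In these 4 libraries deviations rose with GC content. Such a pattern held for 3 of the 36 import genes, near the 5.58% of tested genes, and its cause was not tested.

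In the matrix, 1 of 6 genes fell in aged oocytes, beside 8.06% of all tested genes. Pmpcb, the catalytic subunit of the peptidase that removes presequences, had 19.0, 30.3 and 25.8 CPM in aged libraries, against 38.1, 38.5 and 45.0 CPM in young libraries. The groups did not overlap, and aged replicate 1 was the lowest. Pmpcb fell by 0.70 (SE 0.19, edgeR adjusted p = 0.0284), a 1.62-fold lower level, and its partner subunit Pmpca, at about 1 to 2 CPM in all groups, had -0.10 (SE 0.31). The Pmpcb call was lost without aged replicate 3 (edgeR adjusted p = 0.0647) or young replicate 1, 2 or 3 (edgeR adjusted p = 0.0634, 0.0530 and 0.0869) and after length and GC correction (-0.53, edgeR adjusted p = 0.0516). Without aged replicate 1 it stayed at -0.57 (edgeR adjusted p = 0.0476). The motor gene Hspa9, mitochondrial Hsp70, had 0.30 (SE 0.19), and its nucleotide exchange factor Grpel1 had -0.24 (SE 0.14).

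The chaperonin partners Hspd1 and Hspe1, read from opposite strands of the stretch printed above, differed in sign. The log2 value was 0.15 (SE 0.16) for Hspd1, which forms the folding chamber, and -0.38 (SE 0.14, edgeR adjusted p = 0.0896) for its lid Hspe1. On the length- and GC-corrected scale Hspd1 had 0.18 and Hspe1 -0.0025. Hspe1 had 95.0, 97.4 and 101 CPM in aged libraries, against 147, 108 and 126 CPM in young libraries, and its lowest young library was near the aged range. The genes overlap each other in the annotation, and processed pseudogenes of both are known in mammals, so their counts are uncertain to that extent.

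Spermidine oocytes were next set against aged ones, the comparison closest to the study's question. None of the 35 import genes passed (edgeR, adjusted p under 0.05), beside 4.86% of all tested genes that did, 2.42% higher and 2.44% lower. At an unadjusted edgeR p under 0.05 there were 12 import genes, beside 24.2% of all tested genes. DESeq2 called 3, Timm8a1, Hspe1 and Timm8b, all higher. Over its 18440 genes it called 640 higher and 715 lower, 7.35% in either direction. The median log2 value was 0.20, beside -0.03 over all genes, and 25 of 35 genes had a value above 0. In 9 genes every spermidine library lay above every aged one and in 1, Timm10b, below, beside 11.4% and 8.49% of all tested genes. Under the length and GC correction the median was 0.02, beside -0.01 over all genes, and 0 import genes passed then or without aged replicate 1. Over all tested genes 714 of 12315 passed with the correction and 592 of 12516 without aged replicate 1. Without spermidine replicate 4, 3 genes passed as higher: Timm8a1 at 0.59 (edgeR adjusted p = 0.0351), Timm21 at 0.55 (edgeR adjusted p = 0.0349) and Tomm5 at 1.88 (edgeR adjusted p = 0.0471). In the spermidine group that replicate had the lowest level of each of these genes. Without that replicate 537 of all 12284 tested genes passed as higher and 590 as lower.

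In the intermembrane space, Timm8a1 came closest to the threshold. It had 27.3, 30.1, 30.3 and 22.4 CPM in spermidine libraries, against 19.5, 19.3 and 19.4 CPM in aged libraries. All spermidine libraries were higher, and the aged libraries were nearly equal. The log2 value was 0.51 (SE 0.16, edgeR adjusted p = 0.0799), and 0.30 after length and GC correction (edgeR adjusted p = 0.198). Timm8b had 96.3, 99.3, 83.9 and 78.8 CPM in spermidine libraries, against 70.5, 63.1 and 68.5 CPM in aged libraries, again without overlap, and a log2 value of 0.41 (SE 0.13, edgeR adjusted p = 0.0886), but -0.01 after length and GC correction (edgeR adjusted p = 0.984). Timm10 had 25.9, 26.8, 32.4 and 30.1 CPM in spermidine libraries, against 22.0 to 26.0 CPM in aged ones. The lowest spermidine and the highest aged library met, and the value of 0.26 (SE 0.14) did not pass (edgeR adjusted p = 0.272) and was -0.05 after length and GC correction. Timm9, at 307 to 382 CPM in spermidine libraries, had 0.07 (SE 0.13).

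In the matrix, Hspe1 had 141, 144, 123 and 118 CPM in spermidine libraries, against 95.0, 97.4 and 101 CPM in aged libraries. The groups were separate, with a log2 value of 0.43 (SE 0.14, edgeR adjusted p = 0.0850), and 0.11 after length and GC correction (edgeR adjusted p = 0.571). Hspd1 had 34.98, 38.1, 47.2 and 46.4 CPM in spermidine libraries, against 44.3, 60.3 and 52.0 CPM in aged libraries. Its ranges overlapped, and the value was -0.33 (SE 0.15, edgeR adjusted p = 0.209). The ratio of Hspe1 to Hspd1 counts, likewise chosen after the values were seen, averaged 3.24 ± 0.773 in spermidine (SD, n = 4), 1.90 ± 0.265 in aged and 2.70 ± 0.447 in young libraries (SD, n = 3 each). Every spermidine and every young library had a higher ratio than every aged one. Hspa9 had -0.39 (SE 0.18) and Grpel1 0.00 (SE 0.13).

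**Figure D3:**
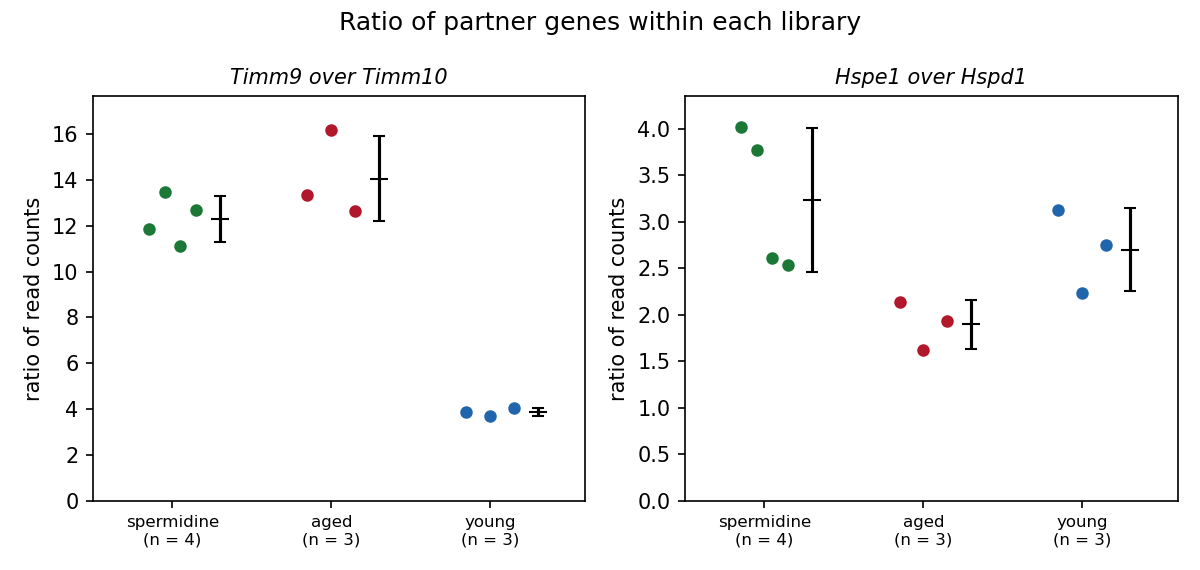
Ratio of read counts (y axis, from 0) of partner genes within each spermidine, aged and young library (points, x axis), with the group mean and SD as a bar. Timm9 over Timm10 averaged 3.87 in young libraries and at least 12.3 in the other groups, and Hspe1 over Hspd1 averaged 1.90 in aged libraries.

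In the inner membrane, the motor genes Pam16 and Dnajc19 stood above every aged library in every spermidine library, without passing. Pam16 had 189, 198, 191 and 177 CPM in spermidine libraries, against 149, 143 and 152 CPM in aged libraries, a value of 0.35 (SE 0.13, edgeR adjusted p = 0.118). Dnajc19 had 0.43 (SE 0.15, edgeR adjusted p = 0.114). With length and GC content corrected, the values were 0.10 for Pam16 (edgeR adjusted p = 0.653) and -0.0010 for Dnajc19 (edgeR adjusted p = 0.997). The values of the genes that had fallen in aged oocytes were 0.44 (SE 0.16) for Timm21, 0.24 (SE 0.11) for Timm23 and 0.30 (SE 0.13) for Timm17a, with 0.22 (SE 0.16) for Tomm22 and 0.19 (SE 0.18) for Pmpcb. Corrected for length and GC content, they were 0.31 for Timm21, -0.01 for Timm23, 0.33 for Timm17a, 0.02 for Tomm22 and 0.02 for Pmpcb, and none passed in edgeR. Both comparisons use the same aged libraries, so these values are not independent of the falls given above. Timm10b, the carrier branch subunit, had a value of -0.42 (SE 0.15, edgeR adjusted p = 0.127). Among outer membrane genes the values were -0.53 (SE 0.21) for Tomm34, -0.41 (SE 0.23) for Tomm40, 0.40 (SE 0.16) for Tomm20 and 0.24 (SE 0.12) for Mtx2.

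Spermidine oocytes were finally set against young ones. Of 35 import genes 1 rose and 1 fell, beside 3.44% of all tested genes that rose, 1.92% that fell and 5.36% in either direction (edgeR). DESeq2 called 4 import genes, Timm8a1 as higher and Timm10, Timm23 and Timm21 as lower. Over its 18440 genes it called 551 higher and 522 lower, 5.82% in either direction. The median log2 value was -0.06, beside 0.04 over all genes. In 2 genes every spermidine library was above every young one and in 7 below, beside 12.1% and 8.92% of all tested genes.

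Timm10 fell, with 25.9 to 32.4 CPM in spermidine libraries, against 62.5 to 78.3 CPM in young libraries. The groups were far apart, with a log2 value of -1.31 (SE 0.14, edgeR adjusted p = 0.000209), a 2.48-fold lower level. It passed without each library in turn and after length and GC correction (-1.23, edgeR adjusted p = 0.000194). Timm8a1 rose, with 27.3, 30.1, 30.3 and 22.4 CPM in spermidine libraries, against 17.5, 15.6 and 21.3 CPM in young libraries. The lowest spermidine library was just above the highest young one, with a log2 value of 0.60 (SE 0.16, edgeR adjusted p = 0.0471), a 1.52-fold higher level. That call was lost without any of spermidine replicates 1, 2 and 3 (edgeR adjusted p = 0.106, 0.164 and 0.109), young replicates 1, 2 and 3 (edgeR adjusted p = 0.217, 0.154 and 0.0793) or aged replicates 2 and 3 (edgeR adjusted p = 0.0666 and 0.0694), which share the estimate of spread. After length and GC correction Timm8a1 passed (0.61, edgeR adjusted p = 0.0186). Reads of Timm8a1 and of its copy Timm8a2, which had a value of -0.22 (SE 0.15), could be split between them in counting.

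Beside young oocytes the other 5 genes that had fallen in aged oocytes had spermidine means between those of the aged and young groups. They were picked for low aged and high young values in these same libraries, so a mean in between is partly set by that choice. Timm23 had 250.3, 286, 291 and 275 CPM in spermidine libraries, all above the aged and below the young ones, and a log2 value of -0.31 (SE 0.11, edgeR adjusted p = 0.146). Timm21 had 29.7, 34.6, 28.3 and 21.7 CPM in spermidine libraries, with replicate 4 inside the aged range, and a value of -0.47 (SE 0.16, edgeR adjusted p = 0.119). The values were -0.42 (SE 0.16) for Tomm22, -0.51 (SE 0.18) for Pmpcb and -0.17 (SE 0.13) for Timm17a, and none of these 5 genes passed in edgeR. With DESeq2 Timm23 (-0.36, adjusted p = 0.0253) and Timm21 (-0.52, adjusted p = 0.0385) passed as lower. In edgeR Timm21 passed after length and GC correction (-0.47, adjusted p = 0.0499), and Pmpcb passed without aged replicate 1 (-0.55, adjusted p = 0.0419). An edgeR adjusted p above the threshold does not show that the levels were alike.

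**Figure D4:**
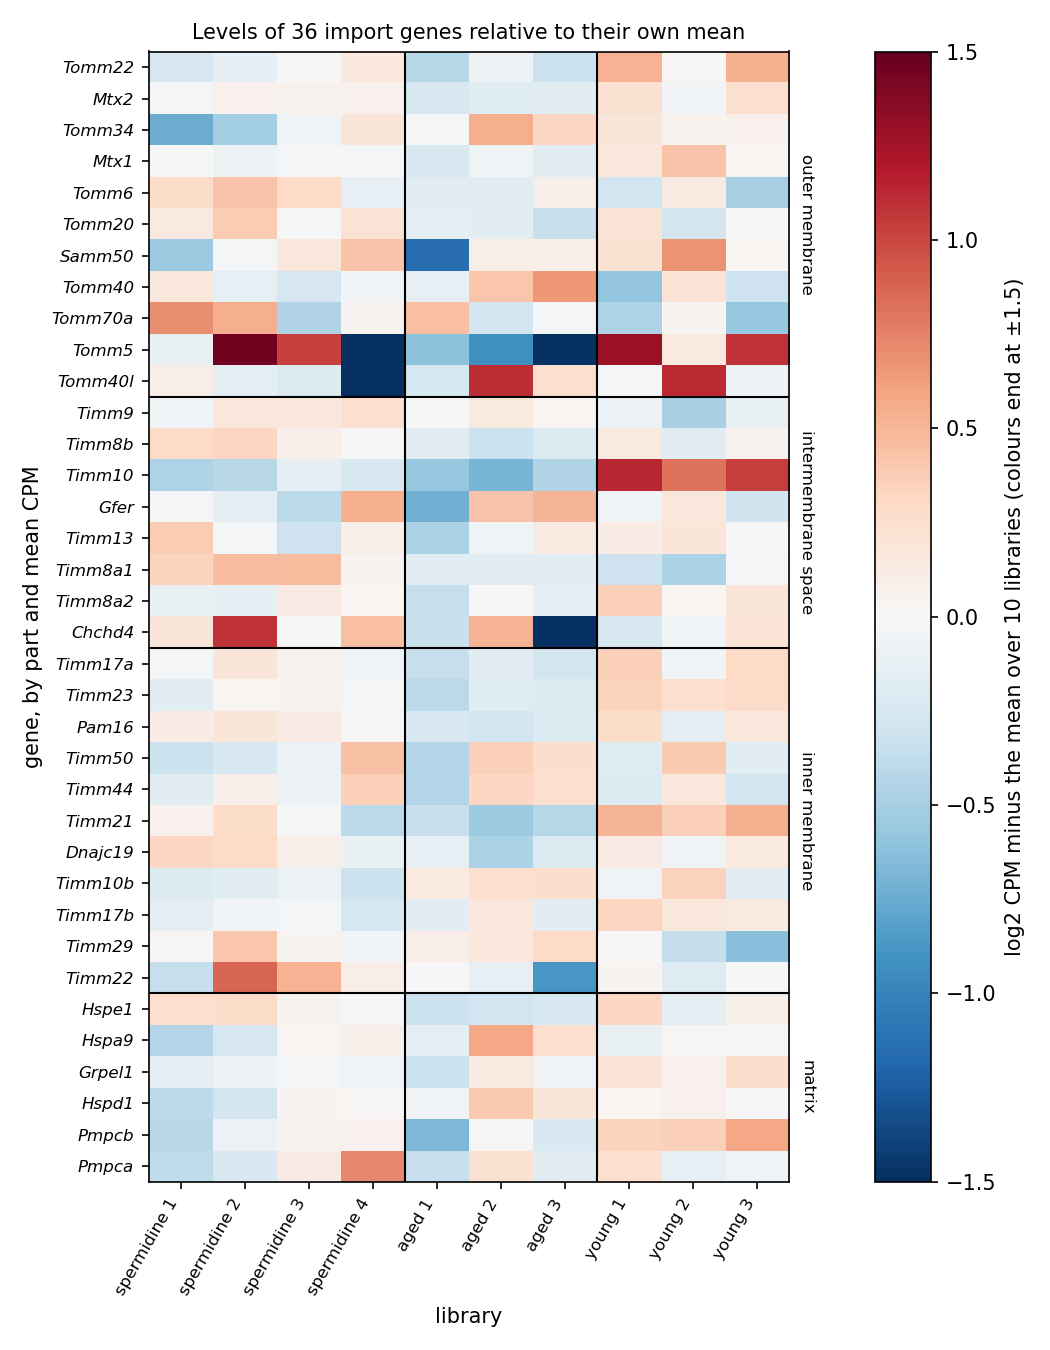
Log2 CPM of the 36 import genes (rows, by place of action and mean CPM) in each spermidine, aged and young library (columns), minus the gene's mean over the 10 libraries; colours end at 1.5 above and below. Timm10 is high in the young libraries alone, and Tomm5 and Tomm40l, with few counts, show wide swings between libraries.

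Summed over genes, the import machinery took 2391 ± 102 CPM in spermidine libraries (SD, n = 4), 2128 ± 175 CPM in aged and 2557 ± 212 CPM in young libraries (SD, n = 3 each). The 11 inner membrane genes summed to 1215 ± 65.4 CPM in spermidine, 1012 ± 63.6 CPM in aged and 1369 ± 124 CPM in young libraries, and each aged library was below each library of the other groups. Timm17a, Timm23 and Pam16 hold most of that sum. The 11 outer membrane genes summed to 245 ± 18.2, 232 ± 23.8 and 279.5 ± 15.5 CPM in spermidine, aged and young libraries. For the intermembrane space the sums were 576 ± 29.3, 523 ± 32.8 and 524 ± 55.4 CPM in the same groups, mostly Timm9. The 6 matrix genes summed to 356 ± 18.4, 362 ± 56.0 and 385 ± 17.9 CPM. These sums are of reads and weigh long transcripts more, and no test was made on them.

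**Figure D5:**
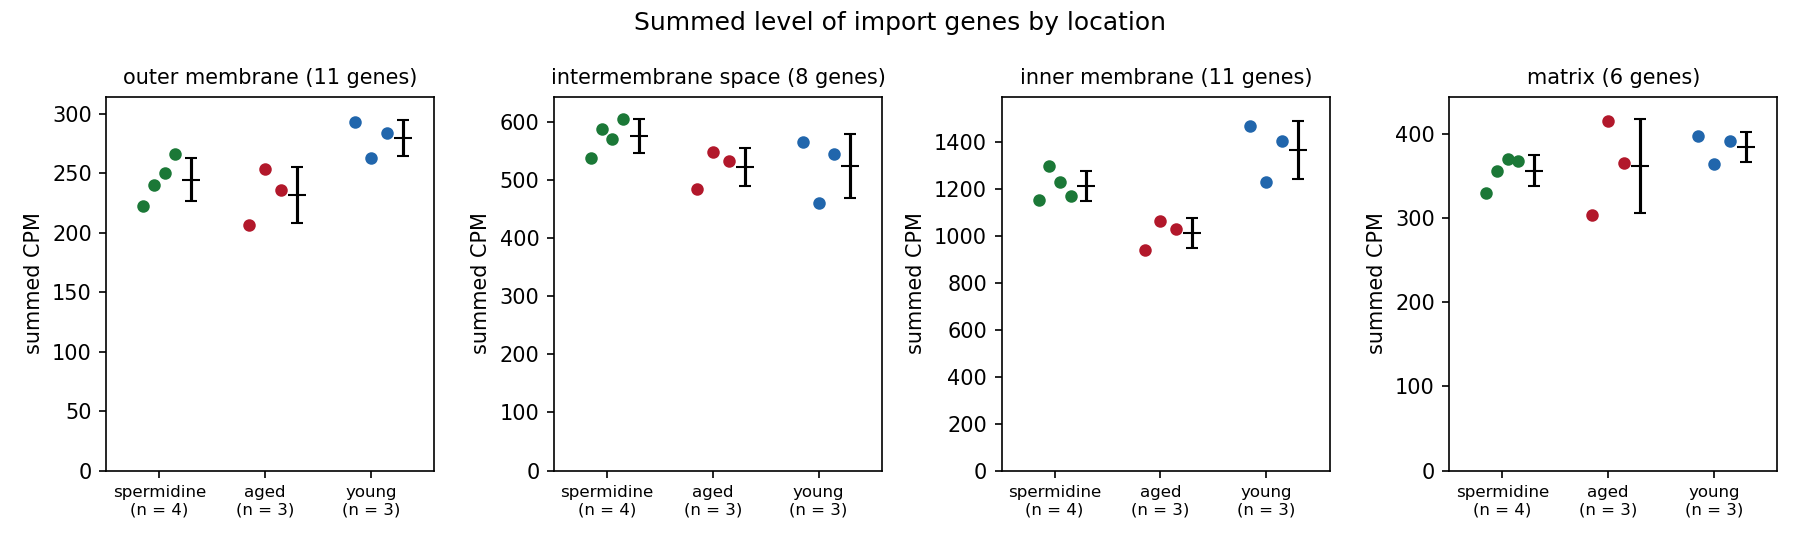
Summed CPM (y axis, from 0) of the import genes of each place of action in each spermidine, aged and young library (points, x axis), with the group mean and SD as a bar. The inner membrane sum averaged 1215 CPM in spermidine, 1012 CPM in aged and 1369 CPM in young libraries, while the matrix sums overlapped.

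Genes that work beside the import machinery were read from 3 lists of 44 genes in all, each of which was tested. In aged against young oocytes 1 rose and 5 fell, beside 9.71% and 8.06% of all tested genes (edgeR). In spermidine against aged oocytes 3 rose and 1 fell, beside 2.42% and 2.44%, and in spermidine against young oocytes 0 rose and 1 fell, beside 3.44% and 1.92%. The counts with length and GC content corrected were 0 up and 4 down, 3 up and 2 down, and 0 up and 1 down in the same comparisons. Over all 12315 tested genes they were then 847 up and 935 down, 297 up and 417 down, and 469 up and 429 down. Of 17 processing and quality control proteases, 3 fell in aged oocytes, beside 8.06% of all tested genes. Mipep, which trims presequences further after the Pmpcb step, had 141, 149 and 169 CPM in aged libraries, against 342, 329 and 343 CPM in young libraries. The groups were far apart, with a log2 value of -1.14 (SE 0.14, edgeR adjusted p = 0.000570). In spermidine libraries Mipep had 147, 163, 199 and 157 CPM, and it was lower than in young oocytes by a log2 value of -1.02 (SE 0.13, edgeR adjusted p = 0.000793). Immp1l, a subunit of the inner membrane peptidase, fell in aged oocytes at -0.56 (SE 0.14), and the matrix protease gene Clpp at -0.61 (SE 0.18). Without each library in turn Mipep passed in both comparisons, whereas Immp1l was lost without aged replicate 2 or 3 or young replicate 1 or 3 (edgeR adjusted p up to 0.0812) and Clpp without replicate 1 or 2 of either group (edgeR adjusted p up to 0.104). On the length- and GC-corrected scale Mipep had -1.26, Clpp -0.51 (edgeR adjusted p = 0.0230) and Immp1l -0.14 (edgeR adjusted p = 0.459).

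Against aged oocytes, Immp2l, the other subunit of that peptidase, rose in spermidine oocytes. It had 2.89, 2.21, 2.31 and 1.80 CPM in spermidine libraries, against 1.20, 0.644 and 1.25 CPM in aged libraries, with a log2 value of 1.15 (SE 0.27, edgeR adjusted p = 0.0343). Pitrm1, which degrades cleaved presequences, fell, with 19.9, 17.4, 18.8 and 18.8 CPM in spermidine libraries, against 44.3, 30.2 and 24.5 CPM in aged libraries. Its level was widely spread among the aged libraries, and the value was -0.82 (SE 0.18, edgeR adjusted p = 0.0292). When single libraries were left out, both calls were lost in several cases. Pitrm1 was lost without aged replicate 2, spermidine replicate 2 or 3 or young replicate 1 or 3 (edgeR adjusted p up to 0.104), and Immp2l without these or without aged replicate 3 or spermidine replicate 1 (edgeR adjusted p up to 0.113). Under the length and GC correction Pitrm1 had -0.74 (edgeR adjusted p = 0.0148) and Immp2l 0.84 (edgeR adjusted p = 0.0644).

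Of 15 other import and motor genes, 2 fell in aged against young oocytes, beside 8.06% of all tested genes, and 2 rose in spermidine against aged oocytes, beside 2.42%. Bcs1l, which inserts the Rieske protein of respiratory complex III into the inner membrane, was in both counts. It had 3.94, 4.28, 5.22 and 5.37 CPM in spermidine, 2.50, 2.69 and 2.02 CPM in aged and 4.70, 7.43 and 5.69 CPM in young libraries. The aged libraries were lowest throughout. The log2 values were 0.96 (SE 0.22, edgeR adjusted p = 0.0313) for spermidine minus aged and -1.31 (SE 0.23, edgeR adjusted p = 0.00367) for aged minus young, and both rest on the same aged libraries. The first was lost without aged replicate 2 or 3, spermidine replicate 2 or 3 or young replicate 3 (edgeR adjusted p up to 0.102), and the second passed without each library in turn. With length and GC content corrected, they were 0.92 (edgeR adjusted p = 0.0213) and -1.26 (edgeR adjusted p = 0.00184). Romo1, a small inner membrane protein, rose in spermidine oocytes by a log2 value of 0.62 (SE 0.15, edgeR adjusted p = 0.0409), and Chchd3, of the cristae junction complex, fell in aged oocytes at -0.39 (SE 0.12). Of 12 cytosolic chaperones that hand precursors over, Hsp90ab1 alone rose in aged oocytes at 0.43 (SE 0.12, edgeR adjusted p = 0.0344), and none passed in edgeR between spermidine and the other groups. When single libraries were left out Romo1 was lost in 9 of 10 cases, all but that of spermidine replicate 4 (edgeR adjusted p up to 0.123). Chchd3 was lost without any aged or young library or spermidine replicate 2 or 3 (edgeR adjusted p up to 0.114), and Hsp90ab1 without any aged or young library or spermidine replicate 2 (edgeR adjusted p up to 0.147). Corrected for length and GC content, Romo1 had 0.44 (edgeR adjusted p = 0.0488), Chchd3 -0.20 (edgeR adjusted p = 0.229) and Hsp90ab1 0.33 (edgeR adjusted p = 0.0647). Of the cytosolic chaperones, Hspa8 then passed as lower in aged against young oocytes (-0.75, edgeR adjusted p = 0.0293). Without the correction Hspa8 had -0.66 (edgeR adjusted p = 0.0924).

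The authors' deposited table gave the same 6 import genes a q-value under 0.05 in aged against young oocytes, all lower, and none in spermidine against aged oocytes. For Timm10 the authors' deposited table had a log2 value of -1.61 with a q-value of 6.38e-17.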

How the data were processed

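Values were taken from 1 table that the authors deposited, which gives for each of the 10 libraries an expected count, headed as a read count; 15.85% to 16.65% of a library's values were not whole. Further columns hold the authors' log2 ratios with p-values and q-values, per the file headers. Per the submitters' processing notes, the tools were RSEM 1.3.1, Bowtie2 2.3.4.3 and DESeq2 1.4.5 and the build mm9, with no role given. How counting used strand is not given in the sources used here; 21 import genes overlap another gene and are uncertain to that extent.

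Counts were rounded, filtered with filterByExpr and scaled by TMM in edgeR 4.0.16 (R 4.3.3), then fitted once over the 10 libraries with robust quasi-likelihood dispersion, after tests on simulated data. P-values were Benjamini-Hochberg adjusted over 12315 genes per comparison, at 0.05. SEs follow from the F statistic. DESeq2 1.42.0 and 20 other settings were alternatives. The length and GC correction used smooth offsets with transcript features of a GRCm38 annotation, known for 97.4% of tested genes. No 2 libraries of a group agreed within sampling noise. Named genes are those that passed and the highest per length in each place, among them Timm9 and Hspe1. Timm8b, Hspd1 and other genes given by library were named after their values were seen. The ratios of Timm9 to Timm10 and of Hspe1 to Hspd1 were also chosen then. The genes and lists were chosen with earlier results of these data known.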

Additional observations from a re-analysis of the deposited data

Results flagged for a closer look

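Among the 36 import genes in the 4 spermidine libraries, 1 library stood far from the other 3 for 2 genes, by the gap to its nearest neighbour over the range (Dixon's test for 4 values). Spermidine replicate 2 had 2.94 CPM of Timm29, against 2.15 to 2.27 CPM in the other spermidine libraries. Spermidine replicate 1 had 53.7 CPM of Mtx2, against 56.6 to 57.1 CPM in the others. Chance flags about 1 gene in 20.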

How the results depend on the processing

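The 8 calls of import genes kept their direction under every alternative run. Timm10 and Timm21 passed under all of them. With single libraries left out, Timm23 kept its call in 10 of 10 runs, Tomm22 in 7, Pmpcb in 6, Timm17a in 5 and Timm8a1 in 2. Among the other settings, Timm23, Tomm22 and Pmpcb lost the call in aged against young oocytes with length and GC correction. Timm17a lost it there without a filter, with total count scaling and with a replicate block. In spermidine against young oocytes Timm8a1 lost it without a filter, with RLE factors and with only the 2 groups. The number of import genes called was 6 in aged against young oocytes and 11 with DESeq2, with a range of 3 to 7 when a library was left out. It was 0 in spermidine against aged oocytes and 3 with DESeq2, with a range of 0 to 3 when a library was left out. In spermidine against young oocytes it was 2, against 4 with DESeq2 and 1 without a filter, with RLE factors and with only the 2 groups, with a range of 1 to 3. Over all genes the calls were 598 (99 to 1127 without a library, 124 to 1355 otherwise), 2189 (827 to 2362 and 1179 to 2793) and 660 (283 to 874 and 273 to 1073) in spermidine against aged, aged against young and spermidine against young oocytes. Total count scaling moved the median of all genes in aged against young oocytes to 0.24, with 1236 genes higher and 405 lower, and the import median to -0.10. With a replicate block 2 import genes passed in spermidine against aged oocytes, Timm8a1 (0.59) and Tomm34 (-0.70), 6 in aged against young and 2 in spermidine against young oocytes. Whether replicate numbers pair the samples is not known. Same-numbered deviations correlated at 0.41, -0.09 and 0.06 in spermidine and aged libraries and at 0.17, 0.17 and -0.28 in aged and young libraries. Not every library correlated best with its own number, and deviations also followed length and GC content, so these values cannot settle it. The cause of these changes was not tested. Genes of few counts, such as Tomm5 and Tomm40l, limit what can be seen at this depth.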
